A study of Mus musculus with 6 samples.

Results

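The regions described here are 2998 stretches of mouse chromosomes 1 to 19 with peaks in all 4 H3K9me3 ChIP libraries of the study. All lay 100 kb or more from every protein-coding gene. In none was 1 condition's lower covered length 1.5 or more times the other's higher, although single libraries could differ by more. The regions were chosen by measured values. Peaks of the 4 libraries were pooled and merged where they overlapped or touched, which gave 70705 regions. Of these, 12446 lay 100 kb or more from the coding genes of GENCODE M21 and 3757 of those had a peak of every library. Removing 128 regions of 20 kb or more, 139 over the start site of a lincRNA, antisense or lncRNA gene and 492 in which 1 condition's lower covered length was at least 1.5 times the other's higher left the 2998 members, 4.24% of all merged regions and 11.1% of the 26897 shared by the 4 libraries. Of the 492 removed for their difference, 472 were longer in shPHF8 and 20 in shCTR. That no member shows such a difference is therefore a product of the selection.

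The cells were neural stem cells (NSCs) cultured from the embryonic cerebral cortex of mice, C57BL/6J by the cell culture methods and C57BL/6JRccHsd by the general animal methods. All of the cells were transduced with lentivirus and selected with puromycin, and they differed in the shRNA, either a control sequence (shCTR, 2 libraries) or a sequence against PHF8 (shPHF8, 2 libraries). The comparison addresses whether H3K9me3 changes when PHF8, a histone demethylase, is depleted. Depletion was by shRNA, not by deletion, and the labels number the replicates without saying whether they were separate cultures. The deposited lists give the position of each peak and no height, score or read count, so a level of H3K9me3 inside a peak is not seen and "covered" means only that a base lay inside a called peak.

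Trimethylation of lysine 9 of histone H3 is written by SUV39H1, SUV39H2 and SETDB1 and is bound by HP1 proteins, which compact chromatin. In mammals it is best known from pericentromeric satellite repeats and from silenced retroelements. PHF8 belongs to the Jumonji family and acts on mono- and dimethylated H3K9 and on monomethylated H4K20. Long intervals without coding genes, called gene deserts, are mostly rich in A and T, although some that border developmental transcription factors hold distant enhancers of those genes.

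Windows of 300 bases from the middle of 4 members show the range of sequence found among them. They are given on the plus strand of mm10 (RefSeq GRCm38.p6), in lower case with each CpG dinucleotide in capitals, because CpG is the site of DNA methylation and its number differed widely among them.

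The member with the greatest mean covered length, chr16:3240951-3241250: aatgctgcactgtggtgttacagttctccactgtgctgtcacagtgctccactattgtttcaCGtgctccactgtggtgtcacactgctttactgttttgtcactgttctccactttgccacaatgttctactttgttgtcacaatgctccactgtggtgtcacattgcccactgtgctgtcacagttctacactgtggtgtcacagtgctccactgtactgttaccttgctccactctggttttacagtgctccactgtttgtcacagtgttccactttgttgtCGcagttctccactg
The member farthest from a coding gene, chr8:51346251-51346550: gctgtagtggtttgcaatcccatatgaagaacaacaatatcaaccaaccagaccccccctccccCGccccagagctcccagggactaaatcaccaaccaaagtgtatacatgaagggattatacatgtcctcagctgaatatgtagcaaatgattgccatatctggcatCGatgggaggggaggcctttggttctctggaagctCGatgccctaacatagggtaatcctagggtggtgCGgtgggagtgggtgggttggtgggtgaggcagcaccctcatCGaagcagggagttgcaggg
The member with the highest GC content, chr12:22030651-22030950: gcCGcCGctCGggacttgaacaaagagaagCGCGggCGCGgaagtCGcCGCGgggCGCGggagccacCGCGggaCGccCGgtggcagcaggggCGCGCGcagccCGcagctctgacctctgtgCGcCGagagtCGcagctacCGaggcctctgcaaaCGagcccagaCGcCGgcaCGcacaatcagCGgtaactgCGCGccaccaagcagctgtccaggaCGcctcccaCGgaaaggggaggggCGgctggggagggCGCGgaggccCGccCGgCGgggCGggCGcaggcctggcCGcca
The member with the lowest share of unique 50-mers, chr3:20636251-20636550: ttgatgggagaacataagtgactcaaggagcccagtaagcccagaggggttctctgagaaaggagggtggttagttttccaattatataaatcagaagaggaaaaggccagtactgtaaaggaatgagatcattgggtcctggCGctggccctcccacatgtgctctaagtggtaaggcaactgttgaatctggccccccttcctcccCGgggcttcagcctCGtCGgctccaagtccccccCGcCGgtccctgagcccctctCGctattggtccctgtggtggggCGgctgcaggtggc

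The chromosome 12 window held 42 CpG and was 75.3% GC. The windows from chromosomes 16, 8 and 3 held 2, 5 and 8 CpG at 48.0, 53.0 and 56.7% GC. Soft-masked bases, which are the repeats marked in the assembly, made up 63.3% of the chromosome 16 window, 66.3% of the chromosome 8 window, 0% of the chromosome 12 window and 95.7% of the chromosome 3 window. Over all members the medians were 43.4% GC and 26.9% soft-masked.

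Members were 200 to 19800 bp wide, with a median of 5400 bp and quartiles of 4000 and 7600 bp. Stable regions nearer coding genes, selected in the same way apart from the distance, had a median width of 5200 bp. Only 35 members were under 2 kb and 370 were 10 kb or wider. Together they spanned 18.6 Mb. The median distance to the nearest coding gene was 198 kb and the largest was 2164 kb.

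Within a member, the 2 shCTR libraries covered a median of 62.8 and 62.5% of the bases, shPHF8 replicate 1 covered 89.3% and shPHF8 replicate 2 covered 71.4%. The 2 shCTR libraries were close to each other, and the shPHF8 libraries lay above them and apart from each other. Replicate 1 of shPHF8 covered the region from edge to edge in 820 members (27.4%), against 109 and 139 members for the shCTR libraries and 258 for shPHF8 replicate 2. That library had the fewest and widest peaks of the 4 (44205 on the autosomes, median 4200 bp, against 53039 to 55344 peaks with medians of 2400 to 2800 bp), so it set the outer edges of many members. The member held exactly 1 peak of the library in 83.2 and 83.4% of members for shCTR, and in 94.3 and 87.8% for shPHF8 replicates 1 and 2. The stretch inside peaks of all 4 libraries at once made up a median of 40% of a member (quartiles 27.6 and 53.6%). In 66 members the 4 libraries had no base in common, since their peaks touched or overlapped only in a chain.

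**Figure D1:**
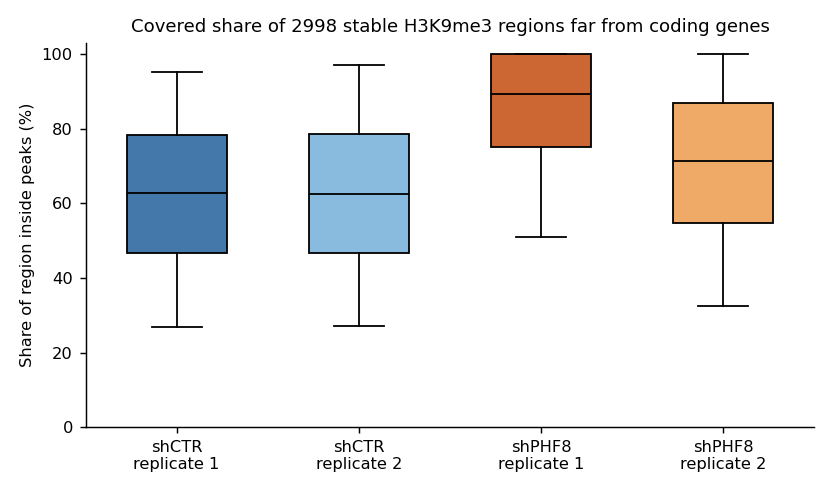
Share of each of the 2998 members that lies inside peaks, in percent, for each library. Boxes span the quartiles with the median as a line and whiskers run from the 5th to the 95th percentile over members. The medians are 62.8 and 62.5% for shCTR and 89.3 and 71.4% for shPHF8 replicates 1 and 2.

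Summed over the members, peaks covered 11.3 Mb in each shCTR library, 15.7 Mb in shPHF8 replicate 1 and 12.9 Mb in shPHF8 replicate 2. Relative to the shCTR mean this was 1.39-fold and 1.14-fold for the 2 shPHF8 libraries, a mean of 1.26-fold (SD 0.177, n = 2). The same ratio was 1.32 over all autosomal peaks and 1.203 in the stable regions nearer coding genes. Because the selection used this difference, these values are a description and were not tested. With 2 libraries against 2, no exact permutation test can go below p = 0.333.

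Both shPHF8 libraries covered more bases than either shCTR library in 1003 members (33.5%) and fewer in 117 (3.90%), and the conditions overlapped in the other 1878 (62.6%). Among the 26897 shared regions of the autosomes, 39.0% were covered more and 5.04% less by the same count. The selection used this contrast, so nothing is read from the difference. In members covered more, the shPHF8 mean exceeded the shCTR mean by a median of 1800 bp, and in members covered less the difference was -1100 bp. Taken alone, shPHF8 replicate 1 was above both shCTR libraries in 1939 members and below both in 249, and replicate 2 was above both in 1287 and below both in 584. When covered bases were scaled to the same total per library, the split turned to 274 members covered more and 703 covered less, with a ratio of 0.955. The selection bears on the scaled values too, since it had removed 472 regions longer in shPHF8 against 20 longer in shCTR. Without that limit 3490 regions qualified, of which 1475 were covered more and 137 less. Their unscaled ratio was 1.36, against 1.32 over all autosomal peaks. The parts of the selection and of the total length called per library in the scaled values were not tested.

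The limits of the selection were not natural breaks in the data. The 3 members nearest the distance limit lay 100010 bp from Mdm1, 100013 bp from Col1a2 and 100102 bp from Trabd2b. The 3 nearest regions on the other side lay 99991 bp from Sptssa, 99986 bp from Rngtt and 99869 bp from Creb5. The 3 widest members were 19800 bp, near Rpl38, Gxylt1 and Cdh4, while the 3 narrowest regions left out for width were 20000, 20000 and 20200 bp, near Tmem132c, Zfp507 and Rtl1. The members closest to the limit on the difference had ratios of 1.49, 1.48 and 1.48 (near Cdh20, Suds3 and Fut8), and the 3 regions just outside it, near Eya1, Arl4c and Bicc1, stood at 1.5 exactly.

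Members occurred on all 19 autosomes, from 39 on chromosome 19 to 227 on chromosome 13. The sequence 100 kb or more from coding genes amounted to 663 Mb, 27.7% of the autosomes, in 1369 stretches, of which 788 held at least 1 member. Per Mb of that sequence there were 4.52 members in all, from 3.18 on chromosome 14 to 7.15 on chromosome 9. Of this sequence, 3.75 and 3.67% lay in peaks of the shCTR libraries and 5.71 and 5.23% in peaks of the shPHF8 libraries. In the rest of the autosomes the shares were 7.58 and 7.78% for shCTR and 10.4 and 9.34% for shPHF8. The sequence far from coding genes was therefore the less covered in every library. Members made up 45.7 and 46.5% of the covered bases there for shCTR and 41.5 and 37.1% for shPHF8. Of the regions far from coding genes, 30.2% had a peak of all 4 libraries and 36.5% of 1 library only, against 39.7 and 28.1% of the regions nearer them.

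The members were spread very unevenly over the deserts, and their density followed base composition. Stretches of at least 200 kb (743 stretches, 613 Mb, 2499 members) were ranked by the GC content of their sequence outside all merged regions and cut into 5 classes of equal number. The class lowest in GC (35.8 to 37.6%) held 1.14 members per Mb, and the next 3 classes held 1.79, 3.69 and 7.52. The class highest in GC (42.1 to 49.8%) held 15.3 members per Mb. It contained 1048 members in 68.3 Mb, whereas the lowest class contained 253 members in 221 Mb. No member was found in 49 of 148 stretches of the lowest class and in 6 of 149 of the highest.

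When the stretches of each autosome were split at their middle rank by GC, the richer ones held more members per Mb than the poorer in 19 of 19 autosomes. The ratio was smallest on chromosome 19 (3.09 against 2.52 per Mb) and greatest on chromosome 16 (10.6 against 0.803). Across the 743 stretches, Spearman's rho between member density and GC content was 0.62, between density and soft-masked share -0.43, and between density and the share of unique 50-mers 0.32. These are descriptions over stretches that share the same 4 libraries, and the 3 sequence measures move together. The median soft-masked share outside regions fell from 43.8% in the lowest GC class to 26.4% in the highest, and the median length of a stretch from 1.26 to 0.378 Mb. The gradient was present in each library by itself. From the lowest to the highest class the share of sequence inside peaks rose from 0.867 to 13.1% in shCTR replicate 1, from 0.713 to 13.4% in shCTR replicate 2, from 1.38 to 20.6% in shPHF8 replicate 1 and from 1.41 to 18.3% in shPHF8 replicate 2. Base composition also affects how well fragments are recovered and mapped, and the inputs and reads were not analysed here, so the part of these steps in the gradient was not tested.

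**Figure D2:**
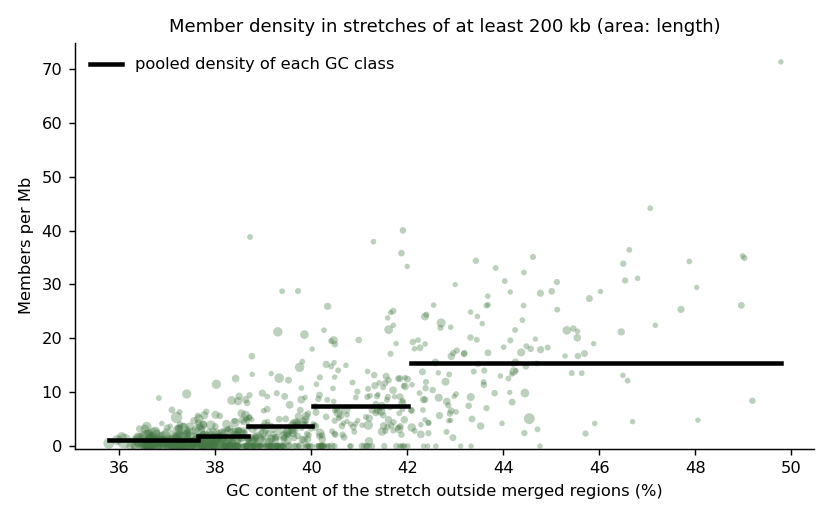
Members per Mb (vertical axis) against the GC content of the sequence outside merged regions, in percent, for 743 stretches of at least 200 kb that lie 100 kb or more from coding genes; the area of a point grows with the length of the stretch. Black lines give the pooled density of 5 GC classes, which climbs from 1.14 to 15.3 members per Mb.

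Density also fell with distance from coding genes. It was 7.72 members per Mb at 100 to 200 kb, 5.62 at 200 to 300 kb, 3.50 at 300 to 500 kb, 1.70 at 500 to 1000 kb and 0.936 beyond 1000 kb. The GC content of the sequence fell alongside, from 40.8% at 100 to 200 kb to 36.9% beyond 1000 kb. Inside the highest GC class, density still went from 17.1 members per Mb at 100 to 200 kb to 14.7 at 200 to 500 kb and 8.56 beyond 500 kb. Inside the lowest class it was 1.29, 1.36 and 0.969. At each of these distances the highest class was thus the denser by a wide margin. The median width of the members changed little with distance, from 5400 bp at 100 to 200 kb to 5200 bp beyond 1000 kb. Between the same distances the median covered share went from 63.3 to 63.8% and from 63.3 to 58.6% in shCTR replicates 1 and 2. In shPHF8 replicates 1 and 2 it went from 89.8 to 96.1% and from 70.6 to 76.4%. Only 60 members lay beyond 1000 kb.

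Some deserts were crowded. The 8 stretches with most members held 207 of them (6.90%) in 9.52 Mb, 1.44% of the sequence far from coding genes. The stretch between Agtr1b, an angiotensin receptor, and Tbl1xr1, a subunit of the NCoR and SMRT corepressor complexes, came first with 32 members (chr3:20467178-21976651). They were gathered toward Tbl1xr1, with 21 in the last 500 kb of the stretch and 11 in the longer remainder. The members of this stretch were covered over 150 and 148 kb in shCTR and over 184 and 160 kb in shPHF8 replicates 1 and 2.

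**Figure D3:**
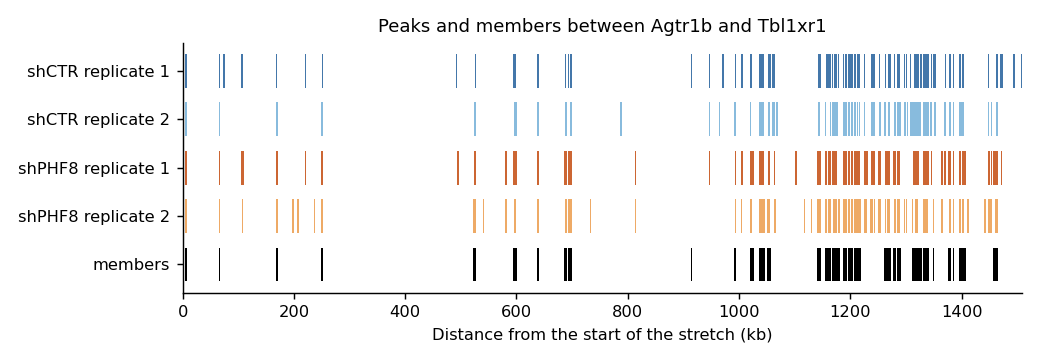
Peaks of each library (coloured bars, 1 row per library) and members (black) along the 1509 kb between Agtr1b and Tbl1xr1 that lie 100 kb or more from either gene; the horizontal axis is the distance in kb from the start of the stretch. Most of the 32 members lie in the last 500 kb. Peaks of all 4 libraries at the members are set by the selection, and some other peaks were called in fewer libraries.

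The stretch from Auts2, a neurodevelopmental gene whose product associates with a Polycomb complex, to Castor2, a gene of the mTORC1 pathway, held 31 members (chr5:132643345-133999710). Between the transmembrane protein genes Tmem132b and Tmem132c there were 27, between Vrk1, a nuclear kinase, and 3110018I06Rik 26, and between the zinc finger gene Zfp608 and Gramd3 on chromosome 18 there were 25. Dok5, a docking protein of receptor tyrosine kinases, and Cbln4, a secreted synaptic organiser, enclosed 23. Kcnj2, a potassium channel, and Sox9 enclosed 22, and Gm5148 and Ankrd50 21. The last was the densest of the 8, at 40.03 members per Mb, and the Kcnj2 to Sox9 stretch the sparsest, at 14.6.

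The Tmem132b to Tmem132c stretch differed from the other crowded ones in how much of it was covered. Peaks took up 52.3 and 44.4% of it in shCTR and 65.2 and 65.8% in shPHF8, while in the other 7 stretches the share ran from 8.26 to 34.0% over the 4 libraries. Soft-masked bases made up 56.4% of this stretch outside regions, the most of the 8. Its members held only 162 of 653 covered kb in shCTR replicate 1 and 204 of 822 covered kb in shPHF8 replicate 2, the rest lying in regions that were too wide, not shared or otherwise outside the selection.

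The longest deserts were nearly empty. The 5 longest stretches, from 4083 to 4468 kb, held 3 members between Tenm3 and Aga, 4 between Pcdh20 and Pcdh9, 2 between Celf4 and Pik3c3, 1 between Olfm4 and Pcdh17 and 6 between Cntnap5b and Cdh20. Tenm3, Pcdh20, Pcdh9, Pcdh17, Cntnap5b and Cdh20 encode neuronal adhesion molecules. Peaks covered 0.208 to 1.21% of these stretches in the shCTR libraries and 0.501 to 2.60% in the shPHF8 libraries. Their GC content outside regions was 36.1 to 38.2%, which puts them in the 2 lowest classes.

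Each member was assigned to its nearest coding gene, and 1099 genes were nearest to at least 1. Tbl1xr1 came first with 28 members, followed by Zfp608 with 22, Auts2 and Sox9 with 20 each and Tmem132b with 19. Next, with 15 each, were Cbln4, Sox2, Tbx3, Vrk1 and Fam19a5. The nearest gene is a matter of position only and does not make a member an element of that gene.

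Sox9, a transcription factor of neural stem cells and glia, is encoded at chr11:112782224-112787760. Of its 20 members, 17 lay toward Kcnj2 and 3 on the other side, at 136 to 824 kb from the gene, and none overlapped an annotated noncoding gene. Their summed covered length was 77.4 and 67.8 kb for shCTR and 95.2 and 73.4 kb for shPHF8. The shPHF8 replicate 2 value lay between the 2 shCTR values, so the conditions overlapped for the sum.

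Sox2, the transcription factor that keeps neural progenitors in their undifferentiated state, is encoded at chr3:34650405-34652461 inside the long noncoding gene Sox2ot. The 15 members nearest to it were 9 on the lower-coordinate side, all within Sox2ot, and 6 on the other side, in no annotated noncoding gene, at 110 to 547 kb. The widest was chr3:34389601-34398600, within Sox2ot, where shCTR covered 3800 and 3600 bp and shPHF8 8800 and 4200 bp. The farthest was chr3:35199601-35205000, where shCTR covered 4200 and 3400 bp and shPHF8 covered 2800 bp in both libraries. Both shPHF8 libraries were above both shCTR libraries in the first and below them in the second. Summed over the 15 members the libraries covered 49.4 and 56.6 kb in shCTR and 69.2 and 56.0 kb in shPHF8, with overlap between conditions. No library had a peak within 1 kb of a Sox2 start site.

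Tbx3, a T-box transcription factor, had 15 members, all on the side of Med13l, in 353 kb of far sequence, or 42.5 per Mb. They were covered over 76.8 and 75.2 kb in shCTR and over 107 and 113 kb in shPHF8. Both shPHF8 sums lay above both shCTR sums, in a contrast that the selection used and whose direction over all members reversed when the libraries were scaled to the same total.

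As a check of the cell type, 10 NSC marker genes (Sox2, Nes, Pax6, Vim, Hes1, Hes5, Fabp7, Msi1, Prom1 and Slc1a3) were examined at their start sites. Of these, 6 had no peak within 1 kb in any library, Pax6 and Prom1 had one in all 4 libraries, Hes5 in shCTR replicate 1 and Slc1a3 in shCTR replicate 2. Peak lists hold no expression, so they cannot show whether the markers were expressed.

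Lists of genes were used to describe whose deserts the members filled. Developmental transcription factors (67 genes on the autosomes) were nearest to 136 members in 21.5 Mb of far sequence, 6.33 per Mb against 4.52 for all members, and 32 of the 55 genes with such sequence had a member. Sox9, Sox2 and Tbx3 led this list, and without these 3 genes it held 86 members in 19.6 Mb, or 4.39 per Mb. The density above that of all members was thus not seen without them. They were picked for having the most members, so leaving them out lowers the density by construction, and the value for all members was not trimmed alike. Genes of cell adhesion and axon guidance (73 genes) were nearest to 109 members in 76.6 Mb, 1.42 per Mb. They border 11.6% of the far sequence and 3.64% of the members. Sema6d, a transmembrane semaphorin, had 11 members, Cdh4, a cadherin, 9 and Adgrl3, an adhesion receptor of synapses, 6. Genes of glutamate and GABA receptors and ion channels (59 genes) were nearest to 24 members, 1.60 per Mb, among them 3 each at Grik3 and Kcnv1 and 2 at Gabrg1.

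Zinc finger genes with a Zfp symbol (385 genes) were nearest to 75 members, 8.39 per Mb, of which 22 belonged to Zfp608 and 5 each to Zfp507 and Zfp637. Without these 3 genes the density was 5.81 per Mb. Olfactory and vomeronasal receptor genes (1453 genes) bordered only 2.51 Mb of far sequence and 9 members, 3 of them at Olfr161, 2 at Olfr1505 and 1 at Olfr693. The GC content of the far sequence was ordered between the 5 lists as the density was. It was 37.2% beside adhesion genes, 37.9% beside receptor and channel genes, 39.97% beside olfactory receptor genes, 40.7% beside developmental transcription factors and 40.9% beside Zfp genes. The part of base composition in these densities was not tested.

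Most members, 2369 (79.0%), overlapped no annotated gene of any kind. Windows of the same width beside the members, without peaks and meeting the same limits on coding genes and noncoding start sites (2763 windows), overlapped none in 82.8%. Members without such a window were still counted, and a member could give a window on either side. The members and windows are therefore not matched. Bodies of lncRNA genes were overlapped by 463 members (15.4%, against 14.4% of the windows), pseudogenes by 127 (4.24% against 1.99%), small RNA genes by 40 (1.33% against 0.941%) and genes marked as yet to be experimentally tested by 33 (1.10% against 0.507%). Processed pseudogenes, which are retrotransposed copies of messenger RNAs, accounted for 99 members. The best-covered members over a noncoding gene were chr16:3231401-3250800, with the predicted miRNA gene Gm23215, chr3:3000001-3017800, with the predicted miRNA gene Gm28002, chr6:99971001-99990200, with the lincRNA Gm33201, chr12:20217801-20236600, with Gm49692 and the processed pseudogene Gm48668, and chr17:9831401-9848200, with AC105304.4.

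The 5 members with the greatest mean covered length were covered over most of their length in every library. At chr16:3231401-3250800, 340 kb from the olfactory receptor gene Olfr161, shCTR covered 18800 and 18200 bp and shPHF8 16800 and 19400 bp of 19400. At chr4:153150401-153169200, 204 kb from Ajap1, shCTR covered 17600 and 17200 bp and shPHF8 18800 bp in both libraries. At chr6:100075801-100095200, 133 kb from Rybp, a Polycomb component, shCTR covered 18400 and 17200 bp and shPHF8 19200 and 17600 bp. The conditions overlapped at the chromosome 16 and 6 regions and were apart at the chromosome 4 region. The fourth, chr3:3000001-3017800, begins at the first assembled base of the chromosome, and shCTR covered 16800 bp and shPHF8 17800 bp in both of their libraries. At the fifth, chr12:21643001-21662600, shCTR covered 14000 and 13600 bp and shPHF8 19600 and 18800 bp. The first assembled Mb of the chromosomes, next to the unassembled centromere, held 24 members in 3.91 Mb of far sequence, or 6.15 per Mb.

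The members farthest from any coding gene were short to moderate in width. At chr8:51345201-51347600, 2164 kb from Aga, shCTR covered 1400 bp in both libraries and shPHF8 2400 and 1600 bp. At chr8:50986401-50992400, 2142 kb from Tenm3, shCTR covered 2600 and 3600 bp and shPHF8 6000 and 3400 bp. The other three, at 1990 to 2140 kb, lay near Cdh20, Pcdh9 and Pcdh20. Soft-masked repeats made up 72.0 and 82.1% of the 2 members on chromosome 8 and 36.9 to 46.6% of the other three.

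By sequence, members were mostly unique DNA, with a minority rich in repeats. Over all their bases together, members were 43.7% GC, against 39.3% for all far sequence and 41.9% for the autosomes, and the median over members was 43.4% (quartiles 41.1 and 45.7%). This was not a trait of the stable regions alone. Regions under 20 kb far from coding genes had a median GC content of 43.2% where 1 library had a peak, 43.3% where 2 had, 43.2% where 3 had and 43.5% where all 4 had. Soft-masked bases made up 32.1% of all member bases, against 38.9% of far sequence and 33.5% of the autosomes, and the median over members was lower, at 26.9% (quartiles 19.8 and 40.9%). Of the 50-mers in members, 50 bases being the length of the reads, 93.6% occur once in the genome, against 87.0% in far sequence, and the median over members was 97.6%. At least 95% of the 50-mers were unique in 1999 members (66.7%). In 514 members (17.1%) at least 50% of the bases were soft-masked, and in 48 (1.60%) under 50% of the 50-mers were unique.

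The 48 members of low uniqueness had a median GC content of 47.3% and a ratio of observed to expected CpG of 0.326, against 43.9% and 0.172 in the 1999 members of high uniqueness. They lay farther out, with a median distance of 299 against 187 kb. Reads that map to several places are a limit on any value in these 48 members, since how such reads were treated is not given in the sources used here. The study's appendix counts such reads for each library. Their treatment also bears on where a peak can be called. Its part in the unique share of all members was not tested.

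Composition was compared with windows of the same width starting 5 kb from each edge, where these met no merged region (1971 members had at least 1), by taking the median difference on each autosome and applying a two-sided exact Wilcoxon signed-rank test over the 19 autosomes, with Benjamini-Hochberg adjustment over 8 comparisons. GC content was higher in members on 19 of 19 autosomes, by a median of 1.197 points (range 0.103 to 2.13; exact test, adjusted p = 1.02e-05). The soft-masked share was higher on 18 of 19, by a median of 2.5 points (range -4.63 to 6.45; exact test, adjusted p = 0.00158), with chromosome 19, which had 27 such members, the exception. The ratio of observed to expected CpG was 0.172 in members and 0.159 in the windows, higher on 13 autosomes and lower on 6, and did not pass the exact test (median difference 0.00766; adjusted p = 0.151), although it did in 2 of 10 alternatives. The share of unique 50-mers, 97.0 against 96.8%, did not pass the exact test either (median difference 0.431 points; adjusted p = 0.0772), although it did in 6 of 10 alternatives.

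Compared with the 19410 stable regions nearer coding genes, members were lower in GC content on 19 of 19 autosomes, by a median of 1.58 points (43.4 against 45.1% over all regions; adjusted p = 1.02e-05 by the same exact test). The ratio of observed to expected CpG was lower on 19 of 19 autosomes as well, with medians of 0.177 and 0.2002 (exact test, adjusted p = 1.02e-05). The distance limit alone separates sequence in the same direction. All far sequence had 39.3% GC and a CpG ratio of 0.157, against 41.9% and 0.194 for the autosomes. These 2 tests therefore cannot separate a trait of the members from that of the sequence around them. The soft-masked share (26.9 against 27.9%; adjusted p = 0.452) and the share of unique 50-mers (97.6% in both; adjusted p = 0.922) did not pass the exact test. With means in place of medians per autosome the soft-masked share was higher in members, by 2.29 points (exact test, adjusted p = 0.00714). The difference in unique 50-mers was then -0.941 points (exact test, adjusted p = 0.00156). In GC content the members thus stood between their immediate surroundings and the regions closer to genes. The 2 comparisons used different sets, since the 1971 members with a usable flank had a median GC content of 42.9% and all members 43.4%.

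**Figure D4:**
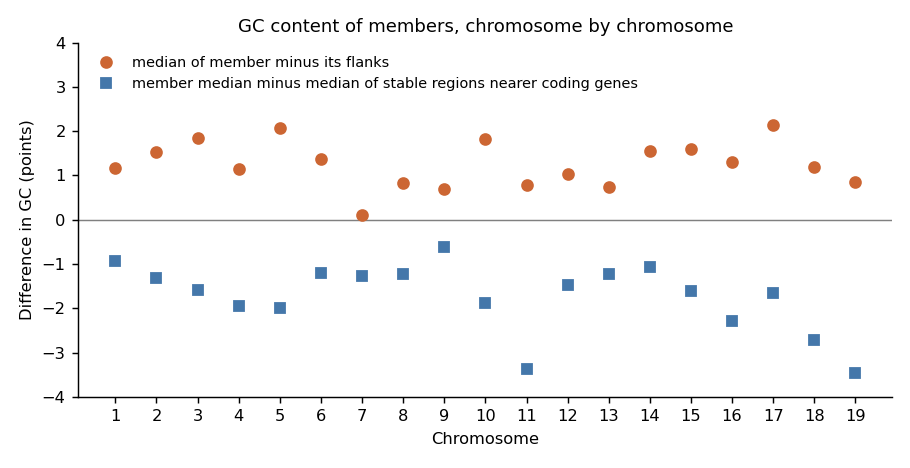
Difference in GC content, in percentage points, on each of the 19 autosomes. Circles are the median, over members with a usable flank, of the member's GC minus that of its flanking windows. Squares are the median of all members minus that of stable regions nearer coding genes. All circles lie above 0 and all squares below.

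The rise in GC content was narrow. Averaged over the 2998 members in windows of 200 bp, GC content was 43.4% in the middle 2.2 kb and 42.4% at 18 to 20 kb on either side. The soft-masked share was 34.2 and 32.1% at the same places. These are means over all bases and not medians over members. Neighbouring members of a stretch were a median of 28.0 kb apart and 28.6% of neighbouring pairs were within 10 kb, so the outer windows include other regions.

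**Figure D5:**
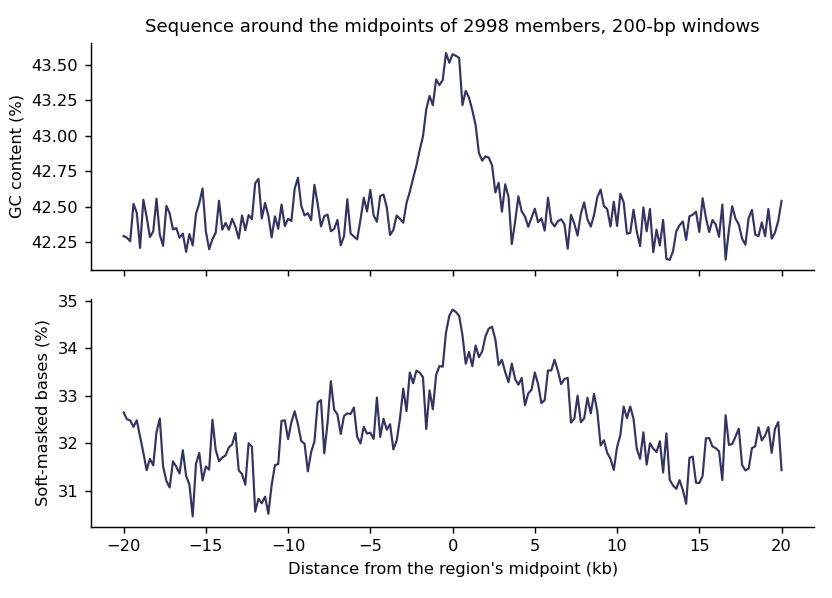
Mean GC content (top) and soft-masked share (bottom), both in percent, in 200-bp windows up to 20 kb from the midpoints of the 2998 members. GC content peaks at the midpoint at 43.4% over the middle windows and returns to 42.4% at the edges; neither vertical axis starts at 0.

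At the low end of GC content, chr1:95451801-95452200, 400 bp wide and 117 kb from Fam174a, had 30.0% and was covered entirely in all 4 libraries. The next were chr4:71148201-71153200 near Gm11232 at 33.6% and chr6:16372001-16376000 near Tfec at 34.0%. The 3 members highest in GC lay close together on chromosome 12, at chr12:22030201-22031400 (66.8%), chr12:21777601-21779200 (64.6%) and chr12:20414801-20417000 (60.9%), the last over the pseudogene AC163633.1. In the first of these shCTR covered 1000 bp in both libraries and shPHF8 1200 bp in both, which is 1 window of 200 bp more. Their ratios of observed to expected CpG were 0.784, 0.718 and 0.622, against a median of 0.177 over all members, and they lay 360 to 613 kb from a coding gene. They are not independent sequences. The second shared 795 of its 50-mers with the third, 51.3% of its own, and 21 with the first. Between the outer of them there were 15 members with a median unique share of 68.4%, and 5 of the 15 shared at least 50 of their 50-mers with the 3.

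The members with the lowest unique share were chr3:20635001-20637800, near Agtr1b, at 23.5%, chr10:3110001-3110400, near H60c, at 28.3% and chr12:23152801-23160000, near Gm10330 and over the pseudogene Gm47383, at 28.6%. In the first, of which the window above is the middle, shCTR covered 2000 and 2800 bp and shPHF8 2400 and 2800 bp. Of the 332 members in which every 50-mer was unique, the 3 widest were chr7:129756201-129766600 near Wdr11, chr9:47408201-47418400 near Cadm1 and chr4:56613401-56623400 near Actl7b. At the Wdr11 member shCTR covered 1400 and 3600 bp and shPHF8 10200 and 4000 bp, and at the Actl7b member shCTR covered 9400 and 8600 bp and shPHF8 6000 and 7000 bp. Both shPHF8 libraries were above both shCTR libraries at the first and below them at the second.

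The 5 50-mers found in most members, after leaving out those that share a 20-mer with a more frequent one, were all simple repeats, printed here to show what recurs. The bases are in lower case with none singled out, and either strand was counted.

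GA repeat, 227 members: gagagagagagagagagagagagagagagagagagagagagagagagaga
AC repeat, 124 members: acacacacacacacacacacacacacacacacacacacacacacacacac
AGAA repeat, 99 members: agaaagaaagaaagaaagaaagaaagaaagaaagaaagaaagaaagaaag
AAG repeat, 77 members: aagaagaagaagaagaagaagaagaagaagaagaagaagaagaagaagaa
AAGG repeat, 64 members: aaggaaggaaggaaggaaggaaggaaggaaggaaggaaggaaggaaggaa

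The GA repeat occurred in 7.57% of members, 8.78% of 2917 flanking windows and 6.29% of stable regions nearer coding genes. The AC repeat occurred in 4.14, 5.31 and 4.39%. The other three were found in 3.30, 2.57 and 2.13% of members and in 3.74, 2.64 and 2.06% of flanking windows. These shares describe the members and were not tested, and the flanking windows do not stand for all members.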

How the data were processed

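H3K9me3 ChIP-seq peak lists of 2 shCTR and 2 shPHF8 NSC libraries were analysed. The authors deposited 1 list per library with positions only, 0-based starts and inclusive ends in steps of 200 bp. The methods state alignment to mm10 with SOAPaligner/SOAP2 and broad peaks by SICER2, with window, gap, threshold and use of input not given in the sources used here; the submitters' processing notes name Bowtie2 2.3.5.1, SAMtools 1.9 and deepTools instead. The ChIP methods name only the antibody listed against H4K20me1, and an antibody to H3K9me3 is listed elsewhere. The lists held 44205 to 55344 autosomal peaks, and read depth is not in them, although the study's appendix gives mapped reads per library. The 2 inputs were not used here. Groups came from sample titles.

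Ends were raised by 1 bp. Distances and genes used GENCODE M21 (mm10). GC, CpG, soft masking and 50-mers occurring once came from RefSeq GRCm38.p6. Python 3.11.15, numpy 2.4.6 and scipy 1.17.1 were used. On simulated peaks, the merged regions, covered lengths and gene distances were compared with those of bedtools 2.31.1, and the signed-rank test was run on simulated shifts. The members and gene lists were chosen with earlier results of these data known. Regions named were the 5 best covered, the 5 farthest from coding genes, the 3 on each side of each limit and the 3 highest and lowest by GC and unique 50-mers. Genes named were those at the ends of the 8 fullest stretches, the 5 nearest to most members, the 3 leading genes of each list and the genes of the 5 best covered noncoding overlaps; the 5 longest stretches, the other genes nearest to 15 members and the details of Sox9, Sox2 and Tbx3 were added after their values were seen. Alternatives were other distances, merging, peak widths and flanks, no limit on the difference, scaling, a gap of 400 bp, a replicate block and each library left out.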

Additional observations from a re-analysis of the deposited data

Results flagged for a closer look

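Chromosome X was outside the members, yet 13 regions on it met the same conditions. That is 0.238 per Mb of its 54.6 Mb of sequence far from coding genes, against 3.18 to 7.15 per Mb on the autosomes and 1.14 per Mb in the autosomal class lowest in GC, while the GC content of this X sequence was 38.3%. Chromosome X had few peaks of any kind, 262 and 250 in shCTR and 101 and 195 in shPHF8 replicates 1 and 2, covering 0.211 to 0.3496% of it against 6.52 to 9.13% of the autosomes.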

How the results depend on the processing

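With 2 libraries per condition, a peak called in each, and no peak heights, the lists limit any statement to called length. Read depth and the calling threshold are not in the lists, and their part in the edges was not tested. The study's appendix gives mapped reads per library, fewest for shPHF8 replicate 2, and these were not used here. The higher GC content and soft-masked share of members than of their flanks, and the lower GC content and CpG ratio than of regions nearer coding genes, kept direction and passed the test under every alternative run, with GC differences of 1.03 to 1.88 and -2.09 to -1.26 points.

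At 50 kb or more from coding genes there were 4796 members, 1587 covered more and 192 less, and at 200 kb or more 1476, 522 and 53. Scaling to the same total gave 274 covered more, 703 less and a ratio of 0.955, reversing the direction among regions already limited by their difference. With no region left out for the difference there were 3490, of which 1475 were covered more and 137 less, with an unscaled ratio of 1.36. A gap of 400 bp left 73 covered less. The replicate block, counting members where both same-numbered pairs moved alike, gave 1367 covered more and 193 less; the numbers do not pair the libraries by any label, and the correlation of same-numbered deviations was -0.027 over 26897 shared regions. Without 1 library each, members numbered 2526 to 3317, of which 1157 to 1412 were covered more and 223 to 534 less, with ratios of 1.13 to 1.23. The most covered less (534) came without shPHF8 replicate 1, when 1 library stands for its condition; without shCTR replicate 1 it was 351, without shCTR replicate 2 338 and without shPHF8 replicate 2 223.

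Unique 50-mers against flanks passed the test at 50 kb (0.446 points; adjusted p = 0.000671, exact signed-rank), with peaks within 1 kb merged (0.417) and with means per chromosome (4.49), and, without 1 library each, the difference was 0.275 to 0.466. It also passed without shCTR replicate 1 and without either shPHF8 replicate, and was 0 at 200 kb. The CpG ratio against flanks passed with means per chromosome (0.0152) and without shPHF8 replicate 2 (0.0120), and ranged from 0.00519 to 0.0120 without 1 library each. Against regions nearer coding genes, the difference in unique 50-mers turned to -0.0224 at 50 kb, -0.346 at 200 kb and -0.941 with means, and ranged from -0.0503 to 0.245 without 1 library each, with -0.0503 without shPHF8 replicate 2. Only the difference with means passed the exact test (adjusted p = 0.00156). The soft-masked difference turned to 2.29 points with means (exact test, adjusted p = 0.00714). The cause of these shifts was not tested.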
